A study of Mus musculus with 56 samples.

Results

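Tibialis anterior muscle, a mixed but mostly fast muscle of the lower leg, was profiled by bulk RNA sequencing in mice with the titin mechanical knock-out on both alleles (HOMO mKO) at 7 days post injection (dpi). Muscles received either an adeno-associated virus (AAV) encoding green fluorescent protein fused to TEV protease, a plant virus enzyme, or saline alone (NaCl). The samples were taken by their titles: 5 AAV muscles and 4 saline muscles, which are 9 of the 56 samples of the series. Both groups carry the cleavable titin on both alleles, so saline muscle is mutant muscle without the protease and not wild type. Where other groups are used for comparison, they are heterozygous mKO muscle at 7 dpi (4 AAV, 4 saline), wild-type muscle at 7 dpi (4 AAV, 3 saline), and homozygous muscle at 3 and 21 dpi (4 AAV and 4 saline on each day). The labels used here give no age and no promoter for the transgene, and do not say if each sample is another animal. The p-values therefore measure the spread between these samples, part of which may be technical.

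Titin is the giant protein that runs from the edge to the middle of the sarcomere, the repeating contractile unit of muscle, and acts as its molecular spring. It also carries docking sites for signalling proteins, among them ankyrin repeat proteins and calpain 3. In the mechanical knock-out model the protease cuts titin in the living muscle, so that the spring no longer carries force across the sarcomere. The comparison of AAV with saline muscle asks which transcripts differ after the cut.

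The values are the authors' normalised counts (CPM on an effective library size of the authors' choosing), and single libraries are listed in the order of their numbers, AAV 1 to 5 and saline 1 to 4. Differences between groups are log2 values (AAV minus saline) with their standard error from limma, fitted over all 13017 genes tested, and a gene is called where the p adjusted by the Benjamini-Hochberg method is under 0.05. Of the genes tested, 2687 were higher (20.6%) and 2929 lower (22.5%) in AAV muscle, 43.1% in all. At least a 2-fold difference was met by 601 called genes that were higher (4.62%) and 160 that were lower (1.23%). Among all genes tested, called or not, the libraries of both groups did not overlap for 2163 that were higher (16.6%) and 2213 that were lower (17.0%). Calls were thus split about evenly on the deposited scale, while differences of at least 2-fold were mostly rises. A library without a read of a gene still carries a small value, since the authors added 0.5 reads before scaling.

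The libraries held 19.74 M to 26.93 M reads, apart from AAV 2 with 6.9 M. Without AAV 2, 2419 genes were higher and 2632 lower. The viral transgene had 23.8, 29.0, 20.8, 24.1 and 14.3 normalised counts in AAV muscle (238 to 683 reads) and 0 reads in each of the 4 saline libraries, so every library matched its label. It stood at 56.9 to 114 in heterozygous AAV muscle and 158 to 324 in wild-type AAV muscle, so the responses of the genotypes were not measured at equal transgene levels, and the part of this in their differences was not tested. A principal component analysis of the 9 libraries put 60.3% of the variance on a first component, with AAV libraries at 15.7 to 38.1 and saline libraries at -37.2 to -31.4. The 10 most abundant genes took 16.83% to 19.82% of the reads in AAV libraries, against 25.87% to 27.06% in saline libraries. The markers of muscle fibres (Acta1, Ckm, Mb, Ttn, Des, Tnnt3, Myh4 and Myh1) were abundant in every library, with summed normalised counts of 78600 to 103000 in AAV muscle, against 142000 to 147000 in saline muscle. Of these 8, 1 was higher and 7 lower on the deposited scale. When each column was scaled to its own total, 1 was higher and 3 lower, and after quantile normalization 1 and 1.

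The scaling matters for every fall described here. The deposited columns sum to 780473 to 859692 in AAV libraries, against 1065036 to 1119956 in saline libraries, since the authors scaled to an effective size, which was 1.164 to 1.282 times the read total in AAV libraries and 0.893 to 0.939 times in saline libraries. On the deposited scale the median log2 difference of all genes was -0.01. When every column was instead scaled to its own total, that median became 0.33, and the calls became 6929 higher and 778 lower, or 89.9% higher among the called genes, against 47.8% on the deposited scale. Which scale comes nearer to transcripts per fibre was not tested. Each gene list is therefore given on the deposited scale first, where its median can be set against -0.01. Its counts after scaling to column totals follow, and can be set against the 6929 higher and 778 lower of all 13017 genes. A list may thus turn to more higher than lower members and still hold a smaller share of higher genes than all genes do. Among such lists were sarcomere structure, excitation-contraction coupling, and ubiquitin ligases and Foxo. Of the 75 genes described below as lower, markers of cell types aside, 23 no longer passed after column-total scaling, namely Cmya5, Neb, Myom1, Ttn, Synm, Pvalb, Six4, Mstn, Lrp4, Stim1, Srl, Sspn, Psme4, Tfeb, Hspa5, Hspd1, Cars, Rrm2b, Atf5, Srf, Cxcl12, Ccl11 and Il15. After quantile normalization 10 of them no longer passed, namely Cmya5, Neb, Ttn, Synm, Acta1, Tpm1, Srl, Psme4, Hspa5 and mt-Co1. Of the 78 genes described as higher, 0 lost their call under either setting. These lists were written from general knowledge with earlier results of these data known.

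**Figure D1:**
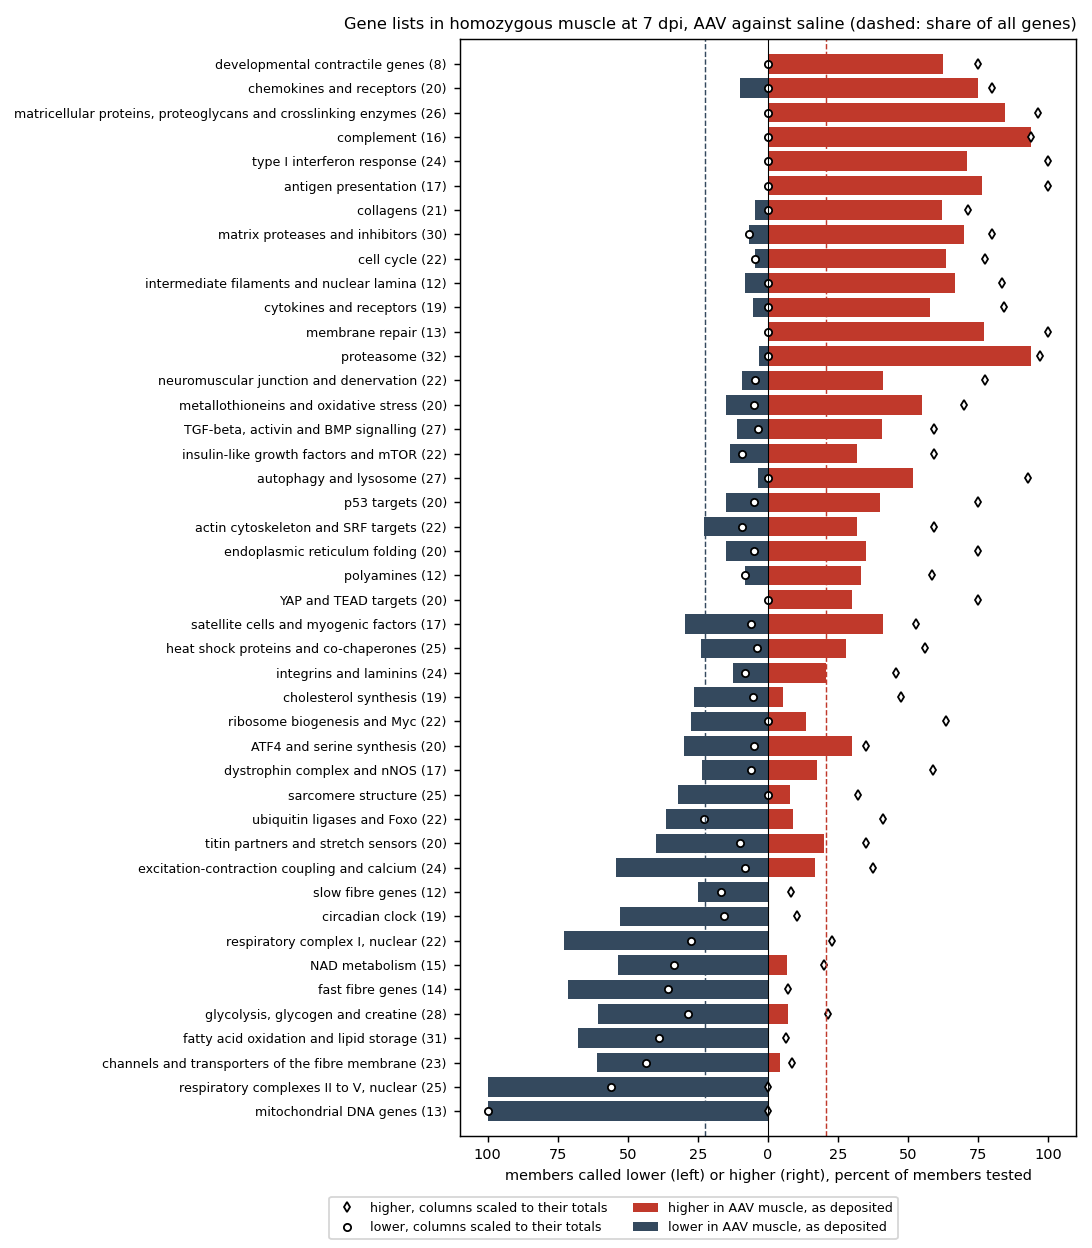
Share of the tested members of 44 gene lists (number tested in brackets) called lower, to the left, or higher, to the right, in AAV muscle, in percent, ordered by the list's median log2 difference. Bars use the deposited scale and open marks the columns scaled to their totals. Dashed lines give the shares of all genes on the deposited scale, 22.5% lower and 20.6% higher. They do not apply to the open marks, where 6929 of all 13017 genes were called higher and 778 lower. Bars of mitochondrial, glycolytic and fast fibre lists reach far left of the dashed line, and several lists whose bars lean left, such as sarcomere structure and excitation-contraction coupling, have more members higher than lower after column-total scaling.

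Genes that bind titin or report on its load did not move as a block. Of 20 titin partners and stretch sensors tested, 4 were higher and 8 lower (median -0.26), and 7 higher and 2 lower after column-total scaling. Ankrd1, a stretch-induced ankyrin repeat protein of titin's N2A region (chr19:36111961-36120099, minus strand), had 425, 722, 402, 1040 and 356 in AAV muscle, against 92.7, 16.3, 60.7 and 19.1 in saline muscle. No value overlapped, AAV 4 was the highest of its group and saline 1 of its own, and the log2 difference was 3.84 ± 0.58, adjusted p = 9.01e-07. Ankrd2, its close relative in slow fibres, behaved otherwise, with 155, 175, 147, 116 and 91.6 in AAV muscle, against 554, 128, 219 and 148 in saline muscle. Saline 1 was the highest library and the groups overlapped (-0.71 ± 0.53, adjusted p = 0.285). Csrp3, which encodes muscle LIM protein, a Z-disc stretch sensor (chr7:48830398-48848033, minus strand), had 279, 412, 217, 281 and 189 in AAV muscle, against 984, 139, 344 and 229 in saline muscle, again with saline 1 highest and with overlap (-0.28 ± 0.65, adjusted p = 0.757). Without saline 1 its log2 difference was 0.26, so the sign rests on that library.

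Smpx and Capn3 of the same list passed the test in opposite directions. Smpx, a small protein of the fibre's costameres, had 390, 420, 488, 410 and 409 in AAV muscle, against 300, 239, 278 and 233 in saline muscle, with no overlap (0.69 ± 0.11, adjusted p = 4.04e-06). Capn3, the muscle calpain anchored on titin, had 97.3, 91.4, 95.4, 93.6 and 105 in AAV muscle, against 171, 165, 167 and 172 in saline muscle. All 5 AAV libraries lay below all 4 saline libraries (-0.80 ± 0.09, adjusted p = 5.79e-09). Kbtbd12 was lower (-0.94 ± 0.17), as was Cmya5 (-0.65 ± 0.16), an anchoring protein of the Z-disc region. Klhl41, a kelch protein that stabilises thin filaments, was higher (0.39 ± 0.12), but not in a fit of only the groups compared without AAV 2 (0.36, adjusted p = 0.0591).

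Transcripts of the sarcomere's own scaffold moved in both directions on the deposited scale, more of them lower than higher. Of 25 genes for sarcomere structure, 2 were higher and 8 lower (median -0.19), a direction that turned to 8 higher and 0 lower after column-total scaling and to 4 higher and 1 lower after quantile normalization. Ttn itself (chr2:76703980-76982547, minus strand) had 9490, 9090, 9340, 8390 and 9100 in AAV muscle, against 14500, 12100, 13200 and 14200 in saline muscle, with no overlap (-0.57 ± 0.12, adjusted p = 0.000215). These are transcript counts and say nothing of how much titin protein was cut. After quantile normalization the Ttn difference was 0.21. Neb, which encodes nebulin, the ruler of the thin filament, differed by -0.41 ± 0.12, and Myom1, which encodes the M-band protein myomesin, by -0.53 ± 0.12. The members that were higher were Obsl1, an obscurin-like linker, with 113, 185, 139, 138 and 118 in AAV muscle, against 89.1, 96.2, 105 and 98.7 in saline muscle, and Myoz3, a calsarcin of the fast Z-disc, with 327, 450, 367, 430 and 358 in AAV muscle, against 303, 268, 254 and 271 in saline muscle. Neither gene overlapped between the groups (0.49 ± 0.14 for Obsl1 and 0.49 ± 0.13 for Myoz3).

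Skeletal alpha-actin was lower and desmin higher on the deposited scale. Acta1, the main actin of the thin filament (chr8:123891769-123894751, minus strand), had 19400, 16200, 14500, 14800 and 18300 in AAV muscle, against 31200, 29100, 30700 and 32800 in saline muscle, and no library overlapped (-0.90 ± 0.14, adjusted p = 1.41e-06). After quantile normalization the Acta1 difference was -0.10 and did not pass (adjusted p = 0.524). Des, which encodes desmin, the intermediate filament that ties Z-discs to each other (chr1:75360329-75368579, plus strand), had 6140, 6370, 6100, 6350 and 5540 in AAV muscle, against 3350, 2960, 2960 and 3000 in saline muscle, with saline 1 the nearest saline library to AAV 5 and no overlap (0.99 ± 0.11, adjusted p = 1.24e-09). Of 12 intermediate filament and lamina genes, 8 were higher and 1 lower (median 0.71), with 10 and 0 after column-total scaling. Lmna, which encodes lamin A of the nuclear envelope, differed by 1.04 ± 0.15, and Vim, the filament of connective tissue cells and immature fibres, by 0.90 ± 0.22. Krt8, a keratin that adult fibres hold at low levels, had 4.29, 3.47, 1.94, 6.39 and 1.49 in AAV muscle, against 0.27, 0.0238, 0.0256 and 0.0254 in saline muscle, and its partner Krt18 had 10.2, 8.45, 3.03, 14.5 and 6.74 in AAV muscle, against 2.85, 1.26, 0.589 and 1.45 in saline muscle. Both were separated, with AAV 4 highest (1.95 ± 0.31, adjusted p = 2.47e-06 for Krt8 and 1.86 ± 0.43, adjusted p = 0.000453 for Krt18). Synm, which encodes the desmin partner synemin, was the member that was lower (-0.52 ± 0.15, adjusted p = 0.0057).

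Genes of immature muscle showed the clearest rises among contractile genes. Of 8 developmental contractile genes, 5 were higher and 0 lower (median 1.80), with 6 and 0 after column-total scaling. Myh8, the perinatal myosin, had 183, 229, 98, 182 and 113 in AAV muscle, against 11.1, 6.15, 5.5 and 2.36 in saline muscle, and Myh3, the embryonic myosin, had 87.4, 170, 58.4, 308 and 56.4 in AAV muscle, against 9.96, 7.91, 14.3 and 6.99 in saline muscle. In both genes AAV 3 and AAV 5 were the lowest of the AAV group and still lay above every saline library. Tnnt2, the cardiac and embryonic troponin T, had 17.6, 22.7, 17.8, 21.2 and 15.3 in AAV muscle, against 2.97, 3.78, 3.05 and 3.02 in saline muscle, with no overlap (2.24 ± 0.40, adjusted p = 1.61e-05). Myl6b, a light chain of immature and slow muscle, was higher (1.36 ± 0.28). Neighbouring myosin genes share sequence, and reads that match several of them were divided by estimation upstream.

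Adult fibre programmes were lower or did not pass. Of 14 fast fibre genes, 0 were higher and 10 lower (median -0.49), with 1 and 5 after column-total scaling and 1 and 2 after quantile normalization. Tpm1 (-0.74 ± 0.14), Tnni2 (-0.61 ± 0.13) and Pvalb (-0.72 ± 0.18), which encode alpha-tropomyosin, fast troponin I and the calcium buffer parvalbumin, were lower without overlap. Of 12 slow fibre genes, 0 were higher and 3 lower (median -0.30), with 1 and 2 after column-total scaling. Myl3, the slow ventricular light chain, had 7.63, 2.49, 14.7, 5.85 and 14 in AAV muscle, against 87.6, 136, 104 and 111 in saline muscle, and Myl2, the slow regulatory light chain, had 7.32, 3.34, 10.5, 13.3 and 6.7 in AAV muscle, against 19, 41.8, 45.6 and 71.2 in saline muscle. Both fell, with no overlap (-3.66 ± 0.51, adjusted p = 1.93e-07 for Myl3 and -2.27 ± 0.62, adjusted p = 0.00281 for Myl2). Myh7, the slow myosin itself, had 54.3, 12.6, 49.1, 47.8 and 15 in AAV muscle, against 51.2, 208, 173 and 223 in saline muscle and did not pass (-2.20 ± 1.06, adjusted p = 0.0879), with saline 1 just below AAV 1. In a fit of only the groups compared Myh7 passed (-2.20, adjusted p = 0.00448). Saline 1 held low values of several slow fibre genes, with a list median of -0.66 against the mean of the saline group. Fewer slow fibres and less of these transcripts per fibre cannot be told apart in these bulk samples, and the same holds for every cell type described here.

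**Figure D2:**
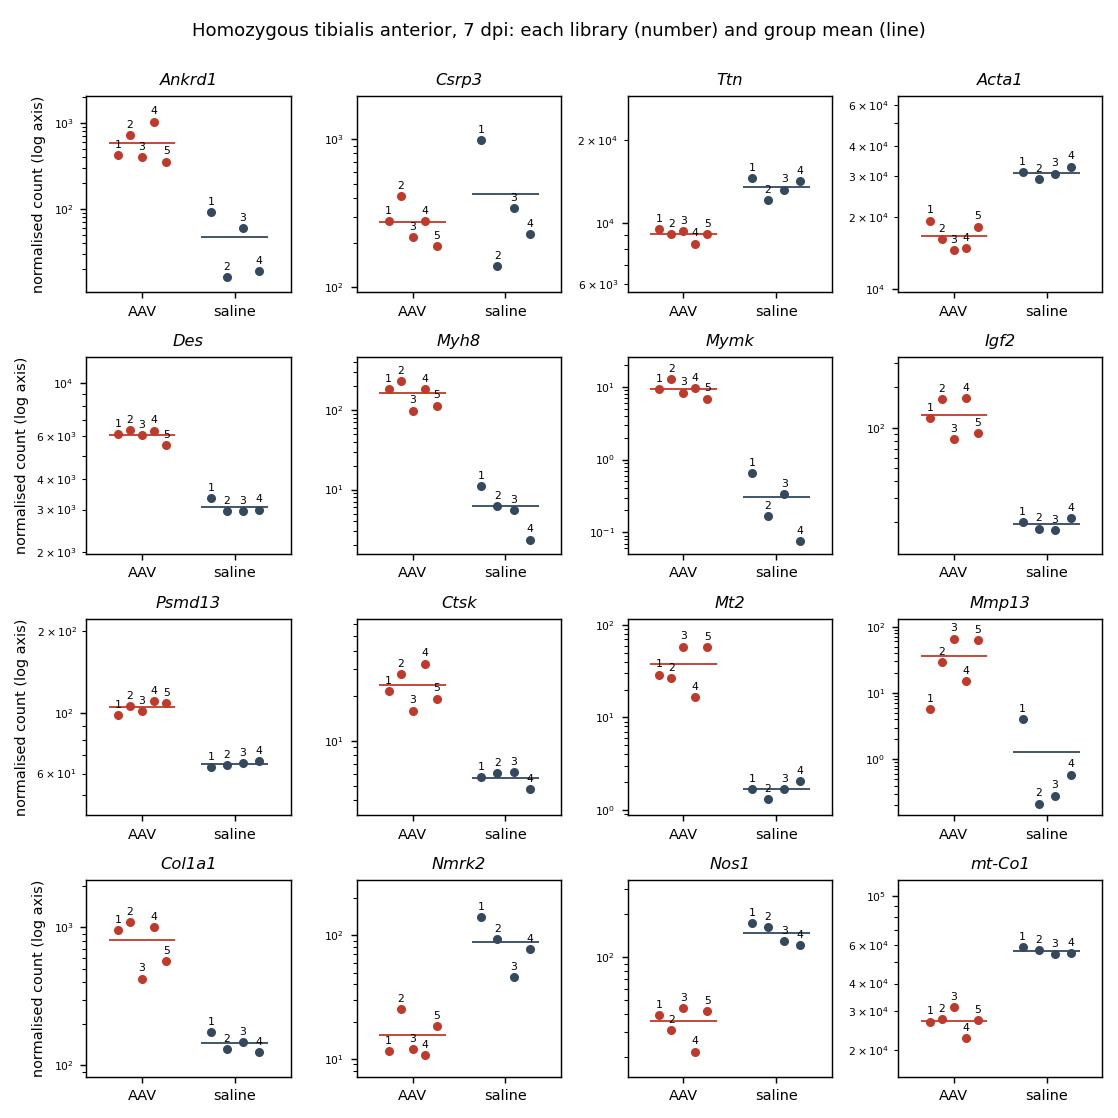
Normalised counts on a log axis for 16 genes in each homozygous library at 7 dpi, AAV left of saline, with the library number above each point and the group mean as a line. Points of AAV and saline muscle separate in every panel but Csrp3, where saline 1 stands at 984, and AAV 3 and AAV 5 are highest for Mt2 and Mmp13 while AAV 2 and AAV 4 are highest for Ankrd1, Mymk and Igf2. The direction of Ttn turns after quantile normalization, and that of Csrp3 without saline 1 or after column-total scaling.

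Myog and Mymk, genes of myoblast differentiation and fusion, rose within a list that moved in both directions. Of 17 satellite cell and myogenic genes, 7 were higher and 5 lower (median 0.12), with 9 and 1 after column-total scaling. Myog, the transcription factor of differentiating myoblasts and denervated fibres, had 28, 48.7, 24.5, 88.4 and 36.1 in AAV muscle, against 7.38, 5.63, 14 and 6.17 in saline muscle, with AAV 4 highest and no overlap (2.24 ± 0.39, adjusted p = 1.29e-05). Mymk, which encodes myomaker, the membrane protein that fuses myoblasts (chr2:27061636-27072179, minus strand), had 9.33, 12.8, 8.34, 9.67 and 6.89 in AAV muscle, against 0.645, 0.166, 0.333 and 0.0762 in saline muscle. The lowest AAV library was about 10-fold above the highest saline library (2.99 ± 0.47, adjusted p = 1.67e-06). Myf6, the myogenic factor of mature fibres, was higher (0.62 ± 0.13), and Six4, a homeobox regulator of muscle genes, was lower (-0.63 ± 0.14). Chodl, a membrane lectin listed as a satellite cell marker, had 2.69, 3.83, 4.64, 2.75 and 3.08 in AAV muscle, against 9.21, 4.96, 7.09 and 7.39 in saline muscle and was lower (-0.89 ± 0.20). The summed satellite cell markers overlapped, at 38 to 45.9 in AAV muscle and 43.7 to 55.3 in saline muscle. Mstn, which encodes myostatin, the inhibitor of muscle growth, had 40.4, 19.3, 44.7, 20.2 and 39.3 in AAV muscle, against 63.3, 42.5, 43.1 and 71.1 in saline muscle. The groups overlapped while the model's difference passed (-0.78 ± 0.23, adjusted p = 0.00475), which it did not in a fit of only the groups compared without AAV 2 (-0.62, adjusted p = 0.067).

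Several genes that muscle switches on when its nerve is silent were higher. Of 22 neuromuscular junction and denervation genes, 9 were higher and 2 lower (median 0.42), with 17 and 1 after column-total scaling. Runx1, a transcription factor of denervated fibres, had 16.1, 21.2, 18.6, 19.9 and 15 in AAV muscle, against 4.55, 2.64, 4.63 and 1.8 in saline muscle, with no overlap (2.17 ± 0.30, adjusted p = 1.43e-07). Chrng, the fetal gamma subunit of the acetylcholine receptor, had 3.01, 2.98, 3.03, 2.49 and 1.83 in AAV muscle, against 0.104, 0.0713, 0.128 and 0.0254 in saline muscle, again without overlap (1.75 ± 0.46, adjusted p = 0.00179). With saline values near 0 the size of the Chrng difference depends on the offset and the model, between 0.70 and 5.51 over the alternatives, and it passed in each. Ncam1 (1.72 ± 0.29), an adhesion molecule of immature and denervated fibres, and Chrnb1 (0.73 ± 0.14), the receptor's beta subunit, were higher. Dach2, a repressor upstream of myogenin that is itself known to fall on denervation, was lower (-1.03 ± 0.26, adjusted p = 0.00125), as was Lrp4, the fibre's agrin receptor (-0.63 ± 0.13, adjusted p = 0.000135). Musk, the kinase of the junction, did not pass, with 4.85, 3.47, 4.25, 5.04 and 5.26 in AAV muscle, against 3.22, 2.07, 2.94 and 5.01 in saline muscle (0.40 ± 0.21, adjusted p = 0.112), though it did without saline 4 (0.58, adjusted p = 0.0326), with array quality weights (0.47, adjusted p = 0.0491) and after column-total scaling (0.71, adjusted p = 0.00591).

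Calcium handling genes moved in both directions. Of 24 genes for excitation-contraction coupling, 4 were higher and 13 lower (median -0.27), which turned to 9 higher and 2 lower after column-total scaling. Without AAV 2 the counts were 2 and 9, and without saline 2 the higher members also numbered 2. Sln, which encodes sarcolipin, the small inhibitor of the sarcoplasmic calcium pump (chr9:53850164-53854560, plus strand), had 208, 205, 285, 224 and 182 in AAV muscle, against 8.34, 9.86, 12.7 and 8.82 in saline muscle, the lowest AAV library standing more than 10-fold above the highest saline library (4.34 ± 0.43, adjusted p = 1.67e-10). Cacng1, the gamma subunit of the voltage sensor channel, had 356, 360, 359, 368 and 368 in AAV muscle, against 187, 189, 192 and 207 in saline muscle, with very close values within each group (0.90 ± 0.13, adjusted p = 5.84e-07). Jph2, which holds the junction of the membrane systems together, had 408, 417, 424, 417 and 440 in AAV muscle, against 668, 772, 733 and 728 in saline muscle and was lower (-0.78 ± 0.14, adjusted p = 1.1e-05). Stim1 (-0.39 ± 0.08) and Srl (-0.39 ± 0.08), a calcium store sensor and a store glycoprotein, were lower as well, differences that are about the size of the shift between the scales.

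Channels and transporters of the fibre surface were mostly lower on the deposited scale. Of 23 tested, 1 was higher and 14 lower (median -0.57), with 2 and 10 after column-total scaling. Clcn1, the chloride channel that steadies the resting membrane, had 149, 112, 134, 115 and 119 in AAV muscle, against 187, 253, 221 and 243 in saline muscle, with no overlap (-0.84 ± 0.13, adjusted p = 2.33e-06). Slc2a4, which encodes the insulin-regulated glucose transporter GLUT4, had 240, 178, 207, 201 and 192 in AAV muscle, against 469, 503, 464 and 393 in saline muscle, and Atp1b1, a subunit of the sodium pump, had 157, 104, 150, 104 and 136 in AAV muscle, against 396, 305, 278 and 267 in saline muscle. Every AAV library was below every saline library for both genes (-1.17 ± 0.16 for Slc2a4 and -1.26 ± 0.19 for Atp1b1). The potassium channel genes Kcnc1 (-1.22 ± 0.16), Kcna7 (-0.90 ± 0.16) and Kcnj11 (-0.81 ± 0.13) were lower.

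At the dystrophin complex, which links the cytoskeleton to the matrix, its nitric oxide synthase had the largest difference of the list. Nos1 (chr5:117781032-117958840, plus strand) had 39.2, 30.7, 44, 21.7 and 41.9 in AAV muscle, against 173, 163, 129 and 122 in saline muscle, with AAV 4 lowest (-2.04 ± 0.20, adjusted p = 1.67e-10). Of 17 dystrophin complex genes, 3 were higher and 4 lower, with 10 and 1 after column-total scaling. Sgcd, which encodes delta-sarcoglycan, had 10.1, 14.8, 12.8, 13.6 and 12.9 in AAV muscle, against 6.51, 4.49, 4.27 and 7.09 in saline muscle and was higher (1.09 ± 0.26, adjusted p = 0.000652), while Sspn, which encodes sarcospan, was lower (-0.39 ± 0.11).

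Membrane repair genes were higher or did not pass. Of 13 tested, 10 were higher and 0 lower (median 0.48), and 13 and 0 after column-total scaling. Anxa1 had 24.7, 34.5, 26.7, 27 and 28.2 in AAV muscle, against 13, 13.8, 10.2 and 9.53 in saline muscle, and Anxa2 had 65.9, 75, 75, 51.5 and 69.5 in AAV muscle, against 46.3, 25.8, 29.7 and 27 in saline muscle. Both annexins, which bind calcium at membrane wounds, were separated between the groups (1.22 ± 0.19 for Anxa1 and 1.07 ± 0.21 for Anxa2). Trim72, the muscle protein MG53 that nucleates repair patches, had 209, 252, 255, 214 and 204 in AAV muscle, against 200, 142, 166 and 149 in saline muscle, separated by a narrow gap between AAV 5 and saline 1 (0.47 ± 0.10, adjusted p = 0.000163). Immune and connective tissue cells also express the annexins.

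Genes of the proteasome, the complex that degrades tagged proteins, were higher nearly throughout. Of 32 proteasome genes, 30 were higher and 1 lower (median 0.42), with 31 and 0 after column-total scaling and 30 and 1 without AAV 2. Psmd13, a lid subunit of the regulatory particle (chr7:140881968-140898643, plus strand), had 98.1, 106, 102, 111 and 109 in AAV muscle, against 63.3, 64.3, 65.7 and 66.8 in saline muscle. Psmb5, the chymotrypsin-like catalytic subunit, had 100, 125, 118, 119 and 116 in AAV muscle, against 75.1, 72.4, 70.1 and 69.9 in saline muscle, and Psma7, a ring subunit, had 87.3, 88, 98.5, 86 and 89.6 in AAV muscle, against 61.8, 51.7, 55 and 55.6 in saline muscle. No library overlapped (0.69 ± 0.07, adjusted p = 1.15e-09 for Psmd13, 0.68 ± 0.08, adjusted p = 2.96e-08 for Psmb5 and 0.67 ± 0.08, adjusted p = 5.29e-09 for Psma7). List medians against the saline mean were 0.36, 0.40, 0.52, 0.37 and 0.38 in AAV libraries 1 to 5, so all 5 showed the rise, with AAV 3 highest. Psme4, an alternative activator, was the member that was lower on the deposited scale (-0.35 ± 0.11, adjusted p = 0.0107), but not without saline 4 (-0.30, adjusted p = 0.0508), and its sign turned after column-total scaling (0.03).

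The ligases best known from wasting muscle, Trim63 and Fbxo32, did not pass on the deposited scale. Trim63, which encodes MuRF1, a ligase that binds titin's M-band end, had 227, 205, 196, 187 and 225 in AAV muscle, against 180, 189, 199 and 246 in saline muscle. The groups overlapped and the difference did not pass (0.04 ± 0.16, adjusted p = 0.865), nor did it without saline 1 (-0.02), but after column-total scaling Trim63 was called higher (0.42, adjusted p = 0.0123). Fbxo32, which encodes atrogin-1, had 325, 169, 387, 186 and 316 in AAV muscle, against 216, 446, 355 and 409 in saline muscle, overlapped as well and did not pass (-0.39 ± 0.26, adjusted p = 0.23). Of 22 ubiquitin ligase and Foxo genes, 2 were higher and 8 lower (median -0.19), which became 9 and 5 after column-total scaling. Trim55, which encodes MuRF2, also a titin binder, had 36.9, 33.7, 42, 31.6 and 40.5 in AAV muscle, against 65.7, 72.6, 66 and 78.1 in saline muscle, with no overlap (-0.92 ± 0.09, adjusted p = 1.12e-10). Asb2 (-0.95 ± 0.20), Foxo4 (-0.86 ± 0.13) and Wwp1 (-0.78 ± 0.13) were lower, and Fbxo30, which encodes the ligase MUSA1, was higher (0.55 ± 0.12, adjusted p = 0.000405). Usp14, a deubiquitinase bound to the proteasome, was higher (0.39 ± 0.09).

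Lysosomal genes were higher, beside a rise of macrophage markers. Of 27 autophagy and lysosome genes, 14 were higher and 1 lower (median 0.26), with 25 and 0 after column-total scaling. Map1lc3a, a coat protein of autophagosomes, had 197, 228, 179, 216 and 173 in AAV muscle, against 100, 91.5, 93.5 and 98.6 in saline muscle, and Ctsk, which encodes the protease cathepsin K, had 21.5, 27.8, 15.9, 32.8 and 19.1 in AAV muscle, against 5.68, 6.06, 6.12 and 4.75 in saline muscle. Both were separated (1.03 ± 0.17, adjusted p = 4.23e-06 for Map1lc3a and 1.84 ± 0.16, adjusted p = 1.65e-11 for Ctsk), with AAV 2 and AAV 4 highest. Lgmn (1.72 ± 0.25) and Hexa (0.92 ± 0.13), lysosomal enzymes abundant in macrophages, were higher, and Tfeb, a transcription factor for lysosome genes, was lower (-0.46 ± 0.13, adjusted p = 0.00434). The summed macrophage markers stood at 271 to 436 in AAV muscle, against 65.8 to 102 in saline muscle, and their part in these differences was not tested.

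Chaperones changed member by member. Of 25 heat shock and co-chaperone genes, 7 were higher and 6 lower, with 14 and 1 after column-total scaling. Hspb8, a small heat shock protein that clears damaged Z-disc proteins, had 934, 1300, 881, 1050 and 715 in AAV muscle, against 636, 414, 445 and 382 in saline muscle, with AAV 5 nearest to saline 1 and no overlap (1.06 ± 0.15, adjusted p = 2.87e-07). Hspb3, a muscle small heat shock protein, was higher (0.80 ± 0.15). Dnajb5 (-0.97 ± 0.18, adjusted p = 2.6e-05) and Hspd1, the mitochondrial chaperonin (-0.56 ± 0.10, adjusted p = 8.81e-06), were lower. Of 20 endoplasmic reticulum folding genes, 7 were higher and 3 lower (median 0.18), with 15 and 1 after column-total scaling and 4 and 2 without AAV 2. Hspa5, the main chaperone of that compartment, had 131, 130, 123, 123 and 129 in AAV muscle, against 183, 161, 162 and 160 in saline muscle and was lower (-0.38 ± 0.11, adjusted p = 0.00514), though not after column-total scaling (0.00, adjusted p = 0.992) or quantile normalization (-0.27, adjusted p = 0.0696). Herpud1, a degradation factor there, was lower (-0.72 ± 0.09). Pdia3, a disulphide isomerase, was higher (0.55 ± 0.16).

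Stress regulators were mixed. Of 20 genes of the ATF4 pathway and serine synthesis, 6 were higher and 6 lower, with 7 and 1 after column-total scaling and 4 and 7 without AAV 2. Atf4, the factor itself, had 79, 86.9, 80.4, 73.1 and 91.3 in AAV muscle, against 146, 124, 122 and 124 in saline muscle, with all AAV libraries lower (-0.64 ± 0.11, adjusted p = 4.66e-06). Mthfd2, a mitochondrial folate enzyme that Atf4 drives, had 8.29, 7.48, 6.07, 6.46 and 6.13 in AAV muscle, against 2.39, 2.02, 2.12 and 2.21 in saline muscle and was higher (1.30 ± 0.20, adjusted p = 1.01e-06). Sesn2 (0.96 ± 0.17) and Nupr1 (0.88 ± 0.18) were higher, and Atf5 (-0.67 ± 0.15) and Cars (-0.44 ± 0.08) were lower. Of 20 p53 targets, 8 were higher and 3 lower, with 15 and 1 after column-total scaling. Cdkn1a, the cell cycle inhibitor p21, had 114, 176, 96, 154 and 104 in AAV muscle, against 61.3, 30.4, 44.7 and 51 in saline muscle, with AAV 2 highest (1.45 ± 0.27, adjusted p = 3.12e-05). Bbc3, a pro-apoptotic factor, was higher (1.10 ± 0.21), and Rrm2b (-0.58 ± 0.11) and Polk (-0.67 ± 0.14), which serve DNA synthesis and repair, were lower.

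Mitochondrial transcripts were lower, and the list median was lowest for genes encoded by mitochondrial DNA. Of 13 of these, 0 were higher and 13 lower (median -0.94), and the counts were 0 and 13 after column-total scaling and 0 and 6 after quantile normalization. mt-Co1, the catalytic subunit of cytochrome oxidase, had 26900, 27600, 31200, 22700 and 27300 in AAV muscle, against 58700, 56700, 54400 and 55000 in saline muscle. AAV 4 was lowest and AAV 3 highest of the AAV group, and no value overlapped (-1.06 ± 0.17, adjusted p = 4.48e-06). After quantile normalization the mt-Co1 difference was -0.10 and did not pass (adjusted p = 0.41). Mitochondrial DNA genes took 12.48% to 15.68% of all reads in AAV libraries, against 19.54% to 20.62% in saline libraries.

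The nuclear genes of the same complexes followed with smaller differences. Of 25 nuclear genes of complexes II to V, 0 were higher and 25 lower (median -0.63), with 0 and 14 after column-total scaling. Sdhb of complex II had 198, 206, 232, 167 and 205 in AAV muscle, against 385, 381, 364 and 341 in saline muscle, and Uqcrc1 of complex III had 312, 348, 320, 269 and 326 in AAV muscle, against 617, 588, 527 and 547 in saline muscle. AAV 4 was lowest in both, and no library overlapped (-0.87 ± 0.12 for Sdhb and -0.86 ± 0.11 for Uqcrc1). Of 22 nuclear complex I genes, 0 were higher and 16 lower (median -0.38), which became 5 and 6 after column-total scaling. Ndufv1, a subunit that accepts electrons from NADH, differed by -0.71 ± 0.10. Sod2, the superoxide dismutase of mitochondria, had 142, 160, 174, 129 and 169 in AAV muscle, against 334, 331, 292 and 305 in saline muscle, while Sod1, its cytosolic counterpart, had 120, 115, 137, 129 and 125 in AAV muscle, against 89.3, 79.5, 77.2 and 84.2 in saline muscle. These enzymes passed the test in opposite directions (-1.03 ± 0.13, adjusted p = 3.19e-08 for Sod2 and 0.59 ± 0.07, adjusted p = 2.07e-08 for Sod1).

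Most fuel genes were lower on the deposited scale. Of 31 genes for fatty acid oxidation and lipid storage, 0 were higher and 21 lower (median -0.52), with 2 and 12 after column-total scaling. Ces1d, a lipid esterase (chr8:93166068-93197838, minus strand), had 4.47, 1.88, 1.81, 1.69 and 5.04 in AAV muscle, against 19.6, 24.5, 25.5 and 23.6 in saline muscle, and Plin4, a lipid droplet protein, had 87.8, 36.2, 65.1, 21.8 and 87.6 in AAV muscle, against 194, 199, 150 and 239 in saline muscle. Plin4 was lowest in AAV 4, and neither gene overlapped (-2.70 ± 0.36, adjusted p = 1.1e-07 for Ces1d and -1.85 ± 0.32, adjusted p = 8.77e-06 for Plin4). Ppargc1a, the coactivator of mitochondrial growth, had 17.9, 13.9, 16.5, 10.9 and 12.7 in AAV muscle, against 28.8, 30, 25.7 and 21.5 in saline muscle and was lower (-0.85 ± 0.18, adjusted p = 0.000123). Of 28 glycolysis, glycogen and creatine genes, 2 were higher and 17 lower (median -0.52), with 6 and 8 after column-total scaling. Ckmt2, the mitochondrial creatine kinase, had 342, 364, 355, 284 and 407 in AAV muscle, against 1190, 966, 1080 and 1020 in saline muscle, and Ppp1r3a, which targets a phosphatase to glycogen, had 204, 133, 220, 123 and 189 in AAV muscle, against 364, 358, 337 and 351 in saline muscle. Both fell with no overlap (-1.61 ± 0.20 for Ckmt2 and -1.05 ± 0.17 for Ppp1r3a). Eno1, the broadly expressed enolase, was higher (0.83 ± 0.18, adjusted p = 0.000159).

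Nmrk2 and Nampt, genes of NAD synthesis, were lower. Nmrk2, a nicotinamide riboside kinase found mainly in muscle (chr10:81198170-81202051, minus strand), had 11.5, 25.2, 11.9, 10.7 and 18.4 in AAV muscle, against 140, 93.7, 46.1 and 77.1 in saline muscle. The highest AAV library, AAV 2, stayed below the lowest saline library (-2.41 ± 0.29, adjusted p = 1.56e-08). Nampt, the rate-limiting enzyme of the salvage route, had 106, 115, 110, 103 and 118 in AAV muscle, against 175, 177, 174 and 169 in saline muscle, with very close values within groups (-0.65 ± 0.08, adjusted p = 7.73e-09). Of 15 NAD metabolism genes, 1 was higher and 8 lower (median -0.45), with 3 and 5 after column-total scaling. The member that was higher was Nnmt, which methylates nicotinamide (0.90 ± 0.23, adjusted p = 0.00146).

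Clock genes were lower or did not pass. Of 19 circadian genes, 0 were higher and 10 lower (median -0.37), with 2 and 3 after column-total scaling. Cry1, a clock repressor, had 8.05, 6.99, 9.6, 8.65 and 7.26 in AAV muscle, against 18.9, 16.1, 13.8 and 11.6 in saline muscle, with no overlap between the groups (-0.81 ± 0.13, adjusted p = 2.32e-06). Nr1d1, which encodes the repressor REV-ERB alpha, had 131, 102, 126, 69.1 and 108 in AAV muscle, against 230, 221, 145 and 159 in saline muscle and was lower (-0.82 ± 0.16, adjusted p = 6.81e-05). The labels used here give no time of dissection, so the part of sampling time in these differences was not tested.

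The 12 largest falls among called genes also held Pm20d2 (chr4:33174230-33189737, minus strand), a dipeptidase that acts on byproducts of carnosine synthesis (-1.91 ± 0.20), and Fam57b, a ceramide synthesis factor (-1.69 ± 0.27). Pm20d2 had 2.42, 1.4, 1.24, 1.58 and 2.25 in AAV muscle, against 8.46, 8.53, 10.2 and 10 in saline muscle, and Fam57b had 11.8, 9.67, 12.9, 7.52 and 14.6 in AAV muscle, against 34.2, 46.4, 30.2 and 42.4 in saline muscle. Neither gene overlapped between the groups. Nrep (-1.69 ± 0.17), Klhl34 (-1.60 ± 0.32) and Timp4 (-1.62 ± 0.41), an inhibitor of matrix proteases, were further members of that set.

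Matrix genes rose strongly. Of 21 collagens, 13 were higher and 1 lower (median 0.88), with 15 and 0 after column-total scaling. Col1a1, a chain of fibrillar collagen I, had 963, 1100, 426, 1000 and 569 in AAV muscle, against 175, 132, 147 and 124 in saline muscle. AAV 3 and AAV 5 were lowest of the AAV group and no value overlapped (2.40 ± 0.32, adjusted p = 8.8e-08). Col8a1 (2.08 ± 0.27), a short-chain collagen of vessel walls and scars, Col5a2 (1.98 ± 0.23) and Col16a1 (1.80 ± 0.23) were higher as well. Collagen list medians against the saline mean ran between 0.47 in AAV 3 and 1.42 in AAV 1.

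Of 26 matricellular proteins, proteoglycans and crosslinking enzymes, 22 were higher and 0 lower (median 1.23), with 25 and 0 after column-total scaling. Fn1, which encodes fibronectin, the provisional matrix of repairing tissue, had 378, 315, 308, 240 and 367 in AAV muscle, against 80.2, 69, 74.9 and 75.1 in saline muscle, and Mfap4, a microfibril glycoprotein, had 42, 43.8, 17.8, 51.8 and 30.5 in AAV muscle, against 4.35, 3.11, 3.97 and 2.67 in saline muscle. Both were separated (2.07 ± 0.28, adjusted p = 9.66e-08 for Fn1 and 3.01 ± 0.32, adjusted p = 1.09e-09 for Mfap4). Fmod, which encodes the tendon proteoglycan fibromodulin, had 13.4, 13.2, 22.2, 17.4 and 21 in AAV muscle, against 20, 42.9, 59.7 and 7.8 in saline muscle and did not pass (-0.55 ± 0.48, adjusted p = 0.358), since saline libraries lay on both sides of the AAV libraries. The summed fibroblast markers overlapped between the groups, at 811 to 1170 in AAV muscle and 1110 to 1170 in saline muscle. Of 9 tested, 3 were higher and 1 lower (median 0.39), with 6 and 1 after column-total scaling and 5 and 1 after quantile normalization. Lum (0.98 ± 0.17), Pi16 (0.72 ± 0.23) and Pdgfra (0.57 ± 0.14) were higher. Gsn (-0.97 ± 0.15), a gene that muscle fibres also express, was lower. It stood at 210 to 343 in AAV muscle, against 484 to 535 in saline muscle, and so weighs on the sum.

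Matrix proteases and their inhibitors rose, some of them unevenly across the AAV libraries. Of 30 proteases and inhibitors, 21 were higher and 2 lower (median 0.80), with 24 and 2 after column-total scaling. Mmp13, which encodes interstitial collagenase (chr9:7272514-7283331, plus strand), had 5.75, 29.5, 65.9, 15 and 62.7 in AAV muscle, against 4.01, 0.214, 0.282 and 0.584 in saline muscle. AAV 3 and AAV 5 were more than 10-fold above AAV 1, and AAV 1 was close to saline 1, the highest saline library (3.84 ± 0.43, adjusted p = 2.35e-09). Mmp3, which encodes stromelysin (chr9:7445822-7455975, plus strand), had 5.34, 6.87, 22.2, 8.83 and 18.7 in AAV muscle, against 0.52, 0.689, 1.25 and 1.24 in saline muscle, with the same 2 libraries highest and no overlap (2.63 ± 0.27, adjusted p = 2.66e-10). Mmp14, the membrane-bound activator of other proteases, had 45.5, 46.5, 32.8, 47 and 35.7 in AAV muscle, against 11.7, 10.6, 11.6 and 8.46 in saline muscle, with AAV 3 and AAV 5 lowest of the AAV group (1.87 ± 0.24, adjusted p = 3.55e-08). Timp1, an inhibitor induced by injury, had 5.58, 12.5, 10.6, 4.75 and 12.1 in AAV muscle, against 0.603, 0.166, 0.589 and 0.584 in saline muscle and was higher (2.69 ± 0.35, adjusted p = 7.93e-08), while Timp3, an inhibitor bound to the matrix, was lower (-0.74 ± 0.17, adjusted p = 0.000374).

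Metallothioneins, small metal-binding proteins induced by zinc, glucocorticoids and cytokines, were highest in the same libraries. Mt2 (chr8:94172664-94173568, plus strand) had 29.1, 26.4, 58.6, 16.7 and 57.6 in AAV muscle, against 1.68, 1.31, 1.66 and 2.06 in saline muscle, and Mt1 (chr8:94179082-94180327, plus strand), its neighbour on the chromosome, had 16.5, 16.6, 27.1, 12.5 and 36.4 in AAV muscle, against 3.64, 4.58, 3.25 and 3.89 in saline muscle. AAV 3 and AAV 5 were highest for both and all AAV libraries lay above the saline libraries (3.71 ± 0.42, adjusted p = 3.92e-09 for Mt2 and 2.14 ± 0.30, adjusted p = 2.74e-07 for Mt1). Of 20 metallothionein and oxidative stress genes, 11 were higher and 3 lower (median 0.37), with 14 and 1 after column-total scaling. Gpx1 (0.98 ± 0.16), a glutathione peroxidase, and Gclm (0.66 ± 0.11), of glutathione synthesis, were higher.

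The promoters of these gene pairs are shown because their members rose together and were highest in the same AAV libraries. Each is the 250 bases before the start that RefSeq annotates on GRCm38.p6, on the plus strand. In Mt2 and Mt1 the capitals mark the letters TGCNCNC or their reverse complement. This is a looser pattern than the core of the element bound by the metal-responsive factor MTF1, so a match need not fit that core. In Mmp13 and Mmp3 they mark TGACTCA or its reverse complement TGAGTCA, the AP-1 site.
Mt2, chr8:94172368-94172617: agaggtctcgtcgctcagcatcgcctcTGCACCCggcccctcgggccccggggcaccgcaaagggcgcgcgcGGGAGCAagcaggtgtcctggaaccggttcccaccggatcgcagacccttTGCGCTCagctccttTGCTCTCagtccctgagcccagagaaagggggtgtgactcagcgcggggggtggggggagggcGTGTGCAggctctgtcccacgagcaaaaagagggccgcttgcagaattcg
Mt1, chr8:94178839-94179088: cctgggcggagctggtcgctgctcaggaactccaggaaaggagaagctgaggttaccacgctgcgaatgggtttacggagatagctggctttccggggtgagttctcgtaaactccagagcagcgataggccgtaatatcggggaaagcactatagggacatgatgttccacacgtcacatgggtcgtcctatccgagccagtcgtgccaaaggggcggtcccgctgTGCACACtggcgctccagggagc
Mmp13, chr9:7272264-7272513: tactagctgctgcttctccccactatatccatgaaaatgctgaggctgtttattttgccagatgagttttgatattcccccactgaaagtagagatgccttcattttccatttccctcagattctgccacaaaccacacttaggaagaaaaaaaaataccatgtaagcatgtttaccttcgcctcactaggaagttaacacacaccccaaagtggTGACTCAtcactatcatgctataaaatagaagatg
Mmp3, chr9:7445572-7445821: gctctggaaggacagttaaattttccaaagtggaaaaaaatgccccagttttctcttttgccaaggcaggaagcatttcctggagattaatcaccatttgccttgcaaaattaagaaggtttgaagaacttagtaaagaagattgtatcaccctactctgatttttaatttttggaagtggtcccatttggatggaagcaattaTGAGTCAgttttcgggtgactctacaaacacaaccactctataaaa
The window of Mt2 holds 5 matches to the looser pattern and that of Mt1 holds 1. The window of Mt2 also holds TGACTCA once, left in lower case. Of 9878 tested genes with such a window, 52.4% hold TGCNCNC on either strand and 2.9% hold TGACTCA, and the 2 motifs share no letters with each other in the windows shown. Among matrix proteases and inhibitors, 3 of 20 windows hold TGACTCA (15.0%). A match describes the letters in a window set by an annotated start, and binding was not measured.

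Growth factors of the insulin-like family rose. Of 22 insulin-like growth factor and mTOR genes, 7 were higher and 3 lower (median 0.28), with 13 and 2 after column-total scaling. Igf2, a growth factor of fetal and regenerating muscle (chr7:142650766-142666816, minus strand), had 118, 164, 82.8, 167 and 91.7 in AAV muscle, against 20.1, 17.9, 17.5 and 21.4 in saline muscle, and Igf1, its adult relative, had 36.1, 31.9, 22.7, 35.8 and 33.8 in AAV muscle, against 19.6, 10.9, 14.4 and 10.8 in saline muscle. Both were separated, with AAV 3 lowest of the AAV group (2.58 ± 0.35, adjusted p = 1.14e-07 for Igf2 and 1.17 ± 0.23, adjusted p = 8.67e-05 for Igf1). Insr, the insulin receptor, had 58.8, 52.7, 53.9, 54.2 and 54.7 in AAV muscle, against 111, 69.9, 83.4 and 93.4 in saline muscle and was lower (-0.67 ± 0.13, adjusted p = 2.81e-05), and Rragd, a GTPase that signals to mTOR at the lysosome, was lower (-0.82 ± 0.12). Of 27 genes of TGF-beta, activin and BMP signalling, 11 were higher and 3 lower (median 0.32), with 16 and 1 after column-total scaling. Fst, which encodes follistatin, the antagonist of myostatin, had 24.7, 30.3, 32.6, 36 and 20.6 in AAV muscle, against 8.42, 12.2, 14 and 8.36 in saline muscle and was higher (1.35 ± 0.27, adjusted p = 6.68e-05). Smad3, the signal carrier of myostatin and TGF-beta, was lower (-0.97 ± 0.15, adjusted p = 1.68e-06).

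Force-responsive factors outside the sarcomere changed in part. Of 20 YAP and TEAD targets, 6 were higher and 0 lower (median 0.17), with 15 and 0 after column-total scaling and 4 and 0 without AAV 2. Ccn1 had 45.3, 93.5, 60.9, 96.1 and 55.4 in AAV muscle, against 28.4, 31.1, 32.3 and 23.4 in saline muscle, and Ccn2 had 15.1, 16.7, 22.4, 25.8 and 41 in AAV muscle, against 7.84, 12.9, 12 and 9.63 in saline muscle. These matricellular targets were separated, with AAV 5 highest for Ccn2 (1.21 ± 0.29 for Ccn1 and 1.06 ± 0.27 for Ccn2). In this list 7 of 15 promoter windows hold GGAATG, the TEAD letters, on either strand (46.7%), which 10.6% of all windows hold. The list was chosen for TEAD targets and its windows include genes that were not called. This share thus says nothing of the change in expression. Of 22 actin cytoskeleton and SRF genes, 7 were higher and 5 lower, with 13 and 2 after column-total scaling, and the lower members numbered 3 without saline 1, without saline 3 or without AAV 3. Srf, the factor itself, had 37.1, 36.7, 42.6, 37.4 and 41.2 in AAV muscle, against 52.3, 61.8, 59.7 and 53.1 in saline muscle and was lower (-0.53 ± 0.11, adjusted p = 0.000206), and Tmsb10, an actin-binding peptide of immature and immune cells, had 68.9, 102, 67.1, 80.5 and 83.3 in AAV muscle, against 15.2, 20, 13.5 and 15.1 in saline muscle and was higher (2.26 ± 0.36, adjusted p = 3.07e-06). Of 24 integrins and laminins, 5 were higher and 3 lower, with 11 and 2 after column-total scaling. On the deposited scale these shares are near or below the 20.6% higher and 22.5% lower of all genes. Itga7, the laminin receptor of fibres, had 202, 233, 193, 213 and 160 in AAV muscle, against 109, 89.7, 86.3 and 88.4 in saline muscle and was higher (1.09 ± 0.16, adjusted p = 8.4e-07), and Itga6, a laminin receptor of vessels and precursors, was lower (-0.77 ± 0.14).

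The lists for ribosome biogenesis, polyamines and cholesterol synthesis took no common direction. Of 22 ribosome biogenesis and Myc genes, 3 were higher and 6 lower, which turned to 14 and 0 after column-total scaling, and the lower members numbered 3 without saline 3. Myc had 5.72, 7.24, 7.25, 6.72 and 6.51 in AAV muscle, against 2.06, 4.82, 4.53 and 1.8 in saline muscle and was higher (0.91 ± 0.23, adjusted p = 0.00107). Of 12 polyamine genes, 4 were higher and 1 lower, with 7 and 1 after column-total scaling. Odc1, the first enzyme of polyamine synthesis, was higher (0.95 ± 0.16), and Amd1, the decarboxylase of the next step, whose reads could be shared with its near copy Amd2, was lower (-1.04 ± 0.16). Of 19 cholesterol synthesis genes, 1 was higher and 5 lower, which turned to 9 and 1 after column-total scaling, and the lower members numbered 3 without AAV 2. Sc5d, a desaturase of the last steps, was lower (-0.66 ± 0.11).

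Genes of immune cells rose, led by macrophage and monocyte transcripts. All 10 macrophage markers were higher (median 1.97), also after column-total scaling. Of 20 chemokines and receptors, 15 were higher and 2 lower (median 1.39), with 16 and 0 after column-total scaling. Ccr2, the receptor of inflammatory monocytes, had 23.6, 39.7, 27.4, 24 and 33.9 in AAV muscle, against 6.84, 4.58, 4.73 and 7.55 in saline muscle, and Cx3cr1, the receptor of resident and patrolling cells, had 6, 6.75, 5.42, 7.59 and 5.42 in AAV muscle, against 0.561, 0.309, 1.25 and 0.737 in saline muscle. Both were separated (2.15 ± 0.35, adjusted p = 4.15e-06 for Ccr2 and 2.10 ± 0.37, adjusted p = 1.08e-05 for Cx3cr1). Cxcl14, a chemokine of fibroblasts and fibres, had 67.8, 71.1, 100, 81.6 and 103 in AAV muscle, against 35.5, 35.7, 37.4 and 48.2 in saline muscle, with AAV 3 and AAV 5 highest (1.08 ± 0.19, adjusted p = 1.34e-05). Cxcl12 (-0.50 ± 0.15) and Ccl11 (-0.68 ± 0.18), made by stromal cells in resting muscle, were lower with overlapping libraries.

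Of 19 cytokines and receptors, 11 were higher and 1 lower (median 0.58), with 16 and 0 after column-total scaling. Socs3, the feedback inhibitor of cytokine signalling through STAT3, had 8.36, 10.8, 34.3, 9.89 and 24.5 in AAV muscle, against 1.89, 2.49, 5.14 and 1.19 in saline muscle. AAV 3 and AAV 5 again held the highest values (2.24 ± 0.34, adjusted p = 1.32e-06). Il33, an alarm cytokine of stromal cells, had 7.66, 9.18, 13.1, 6.65 and 12.6 in AAV muscle, against 3.18, 2.97, 3.97 and 3.89 in saline muscle (1.23 ± 0.25, adjusted p = 9.31e-05), and Il15, a cytokine that muscle fibres make, was lower (-0.51 ± 0.15, adjusted p = 0.00641). Of 16 complement genes, 15 were higher and 0 lower (median 1.15), with 15 and 0 after column-total scaling. Cfb, of the alternative pathway, had 12, 25.8, 12, 21.6 and 19.6 in AAV muscle, against 2.31, 3.11, 2.02 and 2.67 in saline muscle, and the groups did not overlap (2.39 ± 0.32).

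Interferon and antigen presentation genes were higher while saline 4 stood apart from the other saline libraries. Of 24 type I interferon response genes, 17 were higher and 0 lower (median 0.99), with 24 and 0 after column-total scaling. Irf7, an amplifier of the response, had 7, 26.3, 12.4, 22.6 and 17.5 in AAV muscle, against 1.48, 4.54, 3.81 and 9.38 in saline muscle, with saline 4 above AAV 1 (1.70 ± 0.40, adjusted p = 0.000519). List medians against the saline mean were 0.47, 1.39, 0.83, 1.34 and 1.04 in AAV libraries, against -0.50, -0.07, -0.07 and 0.69 in saline libraries. Of 17 antigen presentation genes, 13 were higher and 0 lower (median 0.90), with 17 and 0 after column-total scaling. Cd74, the invariant chain of class II complexes, had 194, 238, 166, 276 and 261 in AAV muscle, against 55.7, 52.3, 60.2 and 76.2 in saline muscle, with no overlap (1.87 ± 0.35, adjusted p = 2.77e-05). The class I peptide transporter Tap1 had 11.9, 17.3, 8.9, 13.9 and 18.1 in AAV muscle, against 3.47, 5.87, 4.99 and 22.3 in saline muscle and did not pass (0.85 ± 0.38, adjusted p = 0.0677), saline 4 holding the highest value of all 9 libraries. It passed without saline 4 (1.36, adjusted p = 0.00378) and without AAV 3 (0.99, adjusted p = 0.0431), as well as with array quality weights (0.91, adjusted p = 0.0303) and after column-total scaling (1.20, adjusted p = 0.0107). T and natural killer cell markers summed to 4.48 to 17 in AAV muscle, against 0.76 to 1.79 in saline muscle, with Cd8a and Gzmb at 0 reads in all saline libraries. Of 7 tested, 6 were higher and 0 lower, also after column-total scaling. The higher members numbered 4 without AAV 2, 3 after quantile normalization and 2 with a pseudocount of 4. Cd3e, a general T cell marker, did not pass (0.29 ± 0.22, adjusted p = 0.282). B and plasma cell markers summed to 1.91 to 2.97 in AAV muscle and 1.85 to 2.11 in saline muscle.

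Cell cycle genes were higher at low levels. Of 22 tested, 14 were higher and 1 lower (median 0.76), with 17 and 1 after column-total scaling and 11 and 1 without AAV 2. Top2a, a topoisomerase of dividing cells, had 5.06, 6.99, 3.85, 5.48 and 5.79 in AAV muscle, against 0.936, 0.356, 0.742 and 0.737 in saline muscle, and Mki67, the proliferation marker Ki-67, had 6.59, 4.44, 5.2, 6.65 and 7.83 in AAV muscle, against 1.73, 1.21, 1.92 and 1.3 in saline muscle. Both were separated (1.92 ± 0.35 for Top2a and 1.48 ± 0.36 for Mki67). Pcna, a replication clamp, did not pass on the deposited scale (0.13 ± 0.10, adjusted p = 0.304) but did after column-total scaling (0.50, adjusted p = 0.00108), and Rrm1, a ribonucleotide reductase subunit, was lower (-0.85 ± 0.13, adjusted p = 8.36e-07).

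Markers of vessels and nerve sheath were lower in part on the deposited scale. Endothelial markers summed to 289 to 337 in AAV muscle, against 482 to 535 in saline muscle, and 7 of 9 were lower and 0 higher, with 5 and 0 after column-total scaling. Pericyte and smooth muscle markers summed to 534 to 703 in AAV muscle, against 883 to 962 in saline muscle, and 4 of 9 were lower and 0 higher, with 3 and 0 after column-total scaling. Kdr (-1.27 ± 0.18) and Flt1 (-0.93 ± 0.18), the receptors of vascular growth factor, Tie1 (-0.84 ± 0.14), a receptor of endothelium, and Rgs5 (-0.81 ± 0.15) of pericytes were lower, and they also passed after column-total scaling (-0.90 for Kdr, -0.55 for Flt1, -0.47 for Tie1 and -0.42 for Rgs5). Schwann cell markers summed to 52.1 to 93.7 in AAV muscle, against 92.7 to 116 in saline muscle, where 3 of 7 were lower, against 0 of 7 after column-total scaling. The lower members numbered 1 without AAV 2, without AAV 3 or without saline 2.

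Wild-type muscle, given the same virus, hardly responded. In wild-type muscle at 7 dpi, where titin has no cleavage site and the transgene level was higher, limma called 0 of 13017 genes (0.0%), 210 had an unadjusted p under 0.05, and DESeq2 on the recovered reads called 4 higher and 3 lower. The difference between the homozygous and the wild-type response was called higher for 1209 genes (9.29%) and lower for 1414 (10.9%), 20.2% in all. Within the lists that difference was called for 25 of 32 proteasome genes, all higher, for 13 of 13 mitochondrial DNA genes, all lower, for 12 of 23 fibre membrane channels and transporters, all lower, and for 17 of 26 matricellular genes, all higher. After column-total scaling the median of all genes in this difference was 0.31, and these counts were 31 proteasome genes higher, 9 mitochondrial DNA genes lower, 7 channels and transporters lower with 2 higher, and 20 matricellular genes higher. For Nos1 wild-type AAV muscle had 188 ± 8.25 and wild-type saline muscle had 206 ± 25.2 (SD, n = 4 and 3), and the difference from the homozygous response was -1.92 ± 0.31, adjusted p = 3.16e-05. For Sln wild-type AAV muscle had 1.08 ± 0.403 and wild-type saline muscle had 1.17 ± 0.563, and the difference was 4.39 ± 0.65, adjusted p = 1.36e-05.

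Heterozygous muscle, with 1 cleavable allele, had 40.4% of genes called at 7 dpi, 19.6% higher and 20.8% lower. The difference between the homozygous and the heterozygous response was called for 3.24% of genes, 91 higher (0.699%) and 331 lower (2.54%). Without saline 1 these numbers were 59 and 219, so that library bears on them. The differences from the wild-type and from the heterozygous response use the same homozygous libraries and are not set against each other. The difference from the heterozygous response passed for 0 of 32 proteasome genes as higher and 2 as lower, and for 0 of 13 mitochondrial DNA genes in either direction. A missed threshold does not show equal responses.

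The genes more raised in homozygous than in heterozygous muscle included secreted proteins of inflammation and matrix breakdown. Mmp13 averaged 35.8 ± 27.4 in homozygous AAV muscle and 1.27 ± 1.83 in homozygous saline muscle, and 0.483 ± 0.49 in heterozygous AAV muscle and 0.221 ± 0.176 in heterozygous saline muscle (SD, n = 5 for homozygous AAV muscle and 4 for each other group). Heterozygous AAV libraries stayed below every homozygous AAV library, and the difference of responses was 3.60 ± 0.62, adjusted p = 0.00017. On the recovered reads this Mmp13 difference did not pass with edgeR (3.48, adjusted p = 0.265) or DESeq2 (3.57, adjusted p = 0.134). Wild-type AAV muscle had 0.131 ± 0.123 and wild-type saline muscle had 2.71 ± 3.2, with 6.37 in 1 saline library, which is above the lowest homozygous AAV library. Serpina3n, a secreted protease inhibitor of the acute phase (chr12:104406729-104414329, plus strand), averaged 16.9 ± 6.22 in homozygous AAV muscle and 0.502 ± 0.182 in homozygous saline muscle, and 1.45 ± 1.06 in heterozygous AAV muscle and 0.358 ± 0.211 in heterozygous saline muscle (difference 2.73 ± 0.35, adjusted p = 1.19e-06). Tnfaip2, a cytokine-induced protein (chr12:111442469-111455018, plus strand), averaged 122 ± 40.1 in homozygous AAV muscle and 50.4 ± 14.7 in homozygous saline muscle, and 31.4 ± 4.86 in heterozygous AAV muscle and 52.9 ± 4.35 in heterozygous saline muscle. The AAV mean was above the saline mean in homozygous muscle and below it in heterozygous muscle, and the difference of responses was 2.00 ± 0.33, adjusted p = 0.00012. Wild-type libraries stood at 55.8 to 102 with AAV and at 53.6 to 68.4 with saline, so the highest of them overlapped homozygous AAV muscle. Cxcl14 (1.34, adjusted p = 0.00184) also passed, as did Mmp3 (1.81, adjusted p = 0.00266). The Mmp3 call was lost with a pseudocount of 0.25 (adjusted p = 0.0534), with edgeR (1.72, adjusted p = 0.279) and with DESeq2 (1.71, adjusted p = 0.214). Of the matrix proteases and inhibitors, 4 of 30 were called in this difference, all as higher.

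The genes less raised or more lowered in homozygous muscle included stretch sensors and slow fibre genes. Of 20 titin partners and stretch sensors, 0 were higher and 8 lower in this difference (median -0.96), and 1 and 8 after column-total scaling. Csrp3 averaged 276 ± 86 in homozygous AAV muscle and 424 ± 383 in homozygous saline muscle, and 1140 ± 255 in heterozygous AAV muscle and 90.6 ± 77.8 in heterozygous saline muscle (-4.25 ± 0.94, adjusted p = 0.00403). All homozygous AAV libraries lay below all heterozygous AAV libraries, and 3 of 4 homozygous saline libraries lay above all heterozygous saline libraries. Cilp, a secreted protein of cartilage and stressed muscle (chr9:65265180-65280605, plus strand), averaged 772 ± 251 in homozygous AAV muscle and 575 ± 112 in homozygous saline muscle, and 566 ± 51.4 in heterozygous AAV muscle and 16.6 ± 7.46 in heterozygous saline muscle (-4.73 ± 0.55, adjusted p = 1.58e-07). Wild-type AAV muscle held 16.2 ± 4.02 and wild-type saline muscle 17.7 ± 5.18. The Cilp level of homozygous saline muscle was thus near that of heterozygous AAV muscle, and far above that of the other saline groups. Of 12 slow fibre genes, 0 were higher and 3 lower in the difference (median -1.52), and the same numbers held after column-total scaling. Myl2 averaged 8.23 ± 3.8 in homozygous AAV muscle and 44.4 ± 21.4 in homozygous saline muscle, and 17 ± 8.25 in heterozygous AAV muscle and 6.88 ± 5.96 in heterozygous saline muscle (-3.62 ± 0.90, adjusted p = 0.0121). Ankrd2 (-3.48, adjusted p = 0.00428), Krt18 (-2.51, adjusted p = 0.0113), Hspb8 (-1.13, adjusted p = 0.000808) and Klhl41 (-1.14, adjusted p = 1.61e-05) passed in the same direction, while Ankrd1 did not (-2.23 ± 0.84, adjusted p = 0.16). Ankrd1 did pass with array quality weights (-2.32, adjusted p = 0.0401) and in a fit of only the groups compared (-2.23, adjusted p = 0.04). Klhl41 averaged 1510 ± 94.6 in homozygous AAV muscle and 1170 ± 268 in homozygous saline muscle, and 2370 ± 311 in heterozygous AAV muscle and 820 ± 105 in heterozygous saline muscle, so it was higher with AAV in both genotypes.

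**Figure D3:**
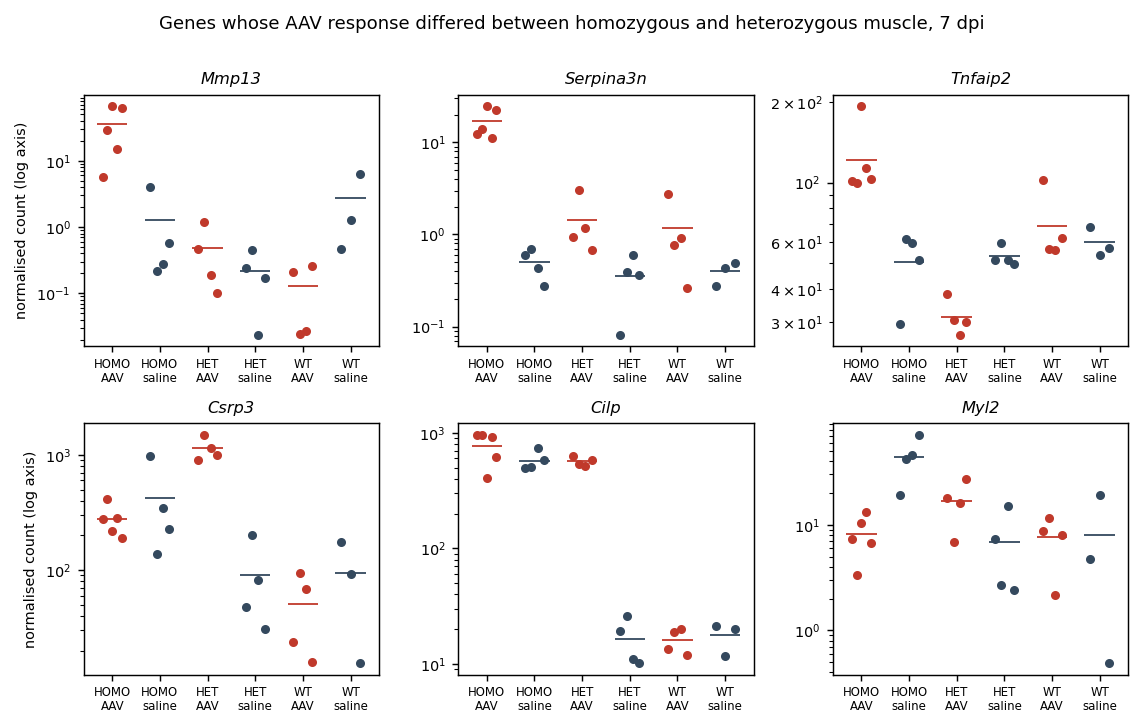
Normalised counts on a log axis at 7 dpi for 6 genes in single libraries of homozygous (HOMO), heterozygous (HET) and wild-type (WT) muscle, AAV left of saline in each genotype, with group means as lines. The means of Mmp13, Serpina3n and Tnfaip2 are highest in homozygous AAV muscle, with 1 wild-type saline library of Mmp13 (6.37) and 1 wild-type AAV library of Tnfaip2 (102) inside its range, Csrp3 is highest in heterozygous AAV muscle apart from saline 1 of the homozygous group, and Cilp stands between 403 and 959 in all homozygous libraries and in heterozygous AAV libraries.

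The homozygous response at 7 dpi was also set against those at 3 and 21 dpi. The share of genes called was 34.6% at 3 dpi, 43.1% at 7 dpi and 59.3% at 21 dpi (29.7% higher and 29.6% lower). The response at 7 dpi was above that at 3 dpi for 365 genes (2.8%) and below it for 411 (3.16%), 5.96% in all. The response at 21 dpi was above that at 7 dpi for 982 genes (7.54%) and below it for 816 (6.27%), 13.8% in all. These differences share the libraries of 7 dpi. The transgene stood at 31.2 to 80.6 in homozygous AAV muscle at 3 dpi and at 127 to 1100 at 21 dpi, against 14.3 to 29.0 at 7 dpi. The part of this in the differences between days was not tested. Wild-type muscle was compared at 7 dpi only, so the part of the virus itself on the other days was not tested either. The difference between 21 and 7 dpi also depends on single AAV libraries of 21 dpi, with 590 and 471 genes without the first and 1662 and 1583 without the fourth.

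Developmental muscle genes had a larger response at 7 than at 3 dpi. Of 8 developmental contractile genes, 5 were called higher in this difference and 0 lower (median 1.96), the same numbers as after column-total scaling. Igf2 averaged 13.1 ± 2.33 in AAV muscle and 17.6 ± 2.79 in saline muscle at 3 dpi, 125 ± 39.4 in AAV muscle and 19.2 ± 1.85 in saline muscle at 7 dpi, and 129 ± 135 in AAV muscle and 14.6 ± 2.09 in saline muscle at 21 dpi (SD, n = 4 each, 5 for AAV at 7 dpi). The AAV libraries at 21 dpi ranged between 33.8 and 329, a wider range than the 82.8 to 167 at 7 dpi. The difference of responses between 7 and 3 dpi was 2.97 ± 0.51, adjusted p = 0.00015. Igfbp4, an Igf-binding protein, moved likewise (1.29 ± 0.27, adjusted p = 0.00165). Matrix proteases were called in 9 of 30 cases as more raised and in 1 as less raised, Mmp13 among the first (3.35 ± 0.62, adjusted p = 0.000449), with averages of 0.535 ± 0.262 in AAV muscle and 0.0821 ± 0.0513 in saline muscle at 3 dpi and 1.96 ± 1.17 in AAV muscle and 1.46 ± 0.851 in saline muscle at 21 dpi. The added 1 on the log scale compresses the Mmp13 difference at 3 dpi, and on the recovered reads the difference between the days was smaller and did not pass (1.81, adjusted p = 0.715 with edgeR and 1.73, adjusted p = 0.569 with DESeq2). The complement gene C1ra had a larger response at 7 dpi too (1.09 ± 0.26, adjusted p = 0.0067).

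Chaperones and stress factors had a smaller response at 7 than at 3 dpi. Of 20 endoplasmic reticulum folding genes, 0 were higher and 12 lower in this difference (median -0.74), and 0 and 10 after column-total scaling. Hspa5 averaged 352 ± 62.9 in AAV muscle and 176 ± 23 in saline muscle at 3 dpi, and 127 ± 3.9 in AAV muscle and 167 ± 11.2 in saline muscle at 7 dpi, a difference of -1.37 ± 0.16, adjusted p = 4.38e-07. Atf4 turned in the same way, with 193 ± 26 in AAV muscle and 121 ± 9.56 in saline muscle at 3 dpi, and 82.2 ± 7.08 in AAV muscle and 129 ± 11.5 in saline muscle at 7 dpi (-1.31 ± 0.16, adjusted p = 4.38e-07). Mybbp1a, a nucleolar regulator of ribosome synthesis, was lower in the difference too (-0.74 ± 0.10, adjusted p = 6.71e-06). Spp1, which encodes osteopontin, a product of activated macrophages, averaged 64.4 ± 34 in AAV muscle and 1.34 ± 0.835 in saline muscle at 3 dpi, and 14 ± 8.45 in AAV muscle and 2.39 ± 0.946 in saline muscle at 7 dpi (-2.62 ± 0.66, adjusted p = 0.0108). Ccl2, a chemokine that draws monocytes, also stood lower on the later day (-2.20 ± 0.38, adjusted p = 0.000163), but did not pass with edgeR (-2.98, adjusted p = 0.0724).

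Nmrk2 fell at 7 dpi and stood higher with AAV at 21 dpi. It averaged 104 ± 38.4 in AAV muscle and 105 ± 46.4 in saline muscle at 3 dpi, 15.6 ± 6.22 in AAV muscle and 89.2 ± 39 in saline muscle at 7 dpi, and 114 ± 41.9 in AAV muscle and 59.9 ± 18.8 in saline muscle at 21 dpi. The response at 7 dpi differed from that at 3 dpi by -2.41 ± 0.43, adjusted p = 0.000246, and the response at 21 dpi from that at 7 dpi by 3.29 ± 0.43, adjusted p = 1.41e-06. Of 32 proteasome genes, 18 had a smaller and 0 a larger response at 21 than at 7 dpi (median -0.35), and 3 and 0 after column-total scaling. Psmb5 averaged 82.6 ± 16.5 in AAV muscle and 67.4 ± 4.25 in saline muscle at 3 dpi, 116 ± 9.28 in AAV muscle and 71.9 ± 2.43 in saline muscle at 7 dpi, and 78.9 ± 6.81 in AAV muscle and 71.9 ± 3.55 in saline muscle at 21 dpi (-0.55 ± 0.12, adjusted p = 0.00207 for 21 minus 7 dpi, and -0.37, adjusted p = 0.0609 after column-total scaling).

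Antigen presentation and respiratory chain genes differed more between AAV and saline muscle at 21 than at 7 dpi, at unequal transgene levels. All 17 antigen presentation genes had a larger response than at 7 dpi (median 2.36), also after column-total scaling. H2-Aa, a class II chain, averaged 61.6 ± 25.7 in AAV muscle and 25.5 ± 10.3 in saline muscle at 3 dpi, 105 ± 20.1 in AAV muscle and 23.1 ± 2.67 in saline muscle at 7 dpi, and 349 ± 245 in AAV muscle and 12.4 ± 4.54 in saline muscle at 21 dpi (2.40 ± 0.49, adjusted p = 0.000661). Of 22 nuclear complex I genes, 15 had a lower response at 21 than at 7 dpi and 0 a higher one, and 13 and 0 after column-total scaling. After column-total scaling the whole-gene median of that difference was 0.17, and 1732 genes were higher and 380 lower.

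**Figure D4:**
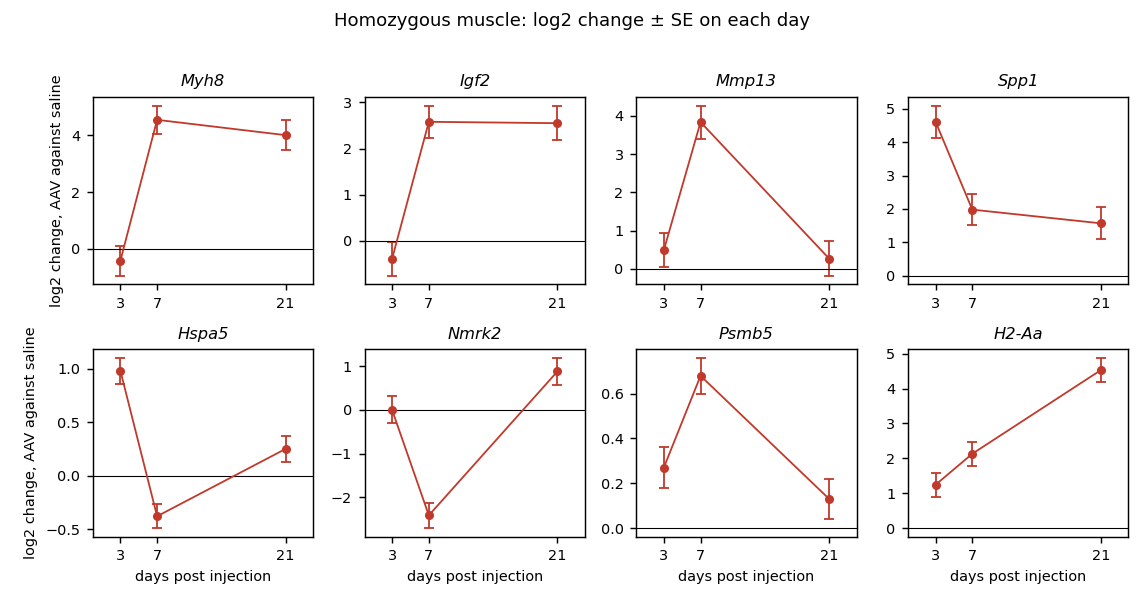
Log2 difference of AAV minus saline muscle (points, with the standard error as bars) at 3, 7 and 21 dpi in homozygous muscle for 8 genes, the days drawn to scale. Myh8 and Igf2 are near 0 at 3 dpi and high on both later days, Mmp13 is highest at 7 dpi on this scale of log2(value + 1), which compresses its low values at 3 dpi, Spp1 is highest at 3 dpi, Hspa5 and Nmrk2 are lowest at 7 dpi, Psmb5 is highest at 7 dpi and H2-Aa is highest at 21 dpi.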

How the data were processed

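Bulk RNA of tibialis anterior muscle was sequenced from directional libraries. Per the submitters' processing notes, the tools were FastQC, Bowtie, RSEM and limma on the mouse build GRCm38/mm10, named without versions or roles. Whether counting used strand is not stated there, so overlapping and antisense genes may share reads, and reads of near-identical genes may have been divided between them. The authors deposited 1 table of normalised signal for 14870 genes and the transgene in 56 samples. Judged by the values, the deposited signal is reads plus 0.5, as CPM on an effective library size of the authors: 99.999% of the values correspond to whole reads within 0.02 reads.

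Tests covered genes whose mean reached 1 CPM (13017 genes, with 1853 left out). Values were fitted as log2(value + 1) with limma 3.58.1 (intensity trend, R 4.3.3) over all 56 samples in 14 groups, which share 1 estimate of the spread, and p-values were adjusted by the Benjamini-Hochberg method at 0.05. This scale understates the change of genes with few reads. Differences between responses are interaction terms of the same fit. The alternatives were edgeR 4.0.16 and DESeq2 1.42.0 on the recovered reads, other scalings, filters and weights, the replicate block, and leaving out libraries. The fits were tested on simulated data. The genes and lists were chosen with earlier results of these data known. The rule for named genes took the 12 largest called rises and falls without overlap at 5 CPM or more, the 4 and 4 largest of each other comparison, up to 6 members of each list by smallest p with up to 3 further ones, and a set of genes always shown. Predicted and unnamed genes were passed over. A few genes that the rule names are not reported here. Coordinates are those of GENCODE M21 on GRCm38, where 14861 genes were found, and promoter sequences are from RefSeq on GRCm38.p6.

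Same-numbered homozygous samples at 7 dpi did not deviate together (correlations over genes of 0, -0.13, -0.05 and -0.03), so equal numbers were not taken as pairs. AAV 2 did with saline 1 (0.28) and AAV 3 with saline 2 (0.23). So did AAV 4 with saline 3 (0.16) and AAV 5 with saline 4 (0.34). The labels do not say what these samples share, and no fit with these pairs was run. In wild-type muscle the highest correlations were 0.38 for AAV 4 with saline 3 and 0.31 for AAV 2 with saline 2. Same-numbered heterozygous samples deviated together (0.15, 0.15, 0.13 and 0.18). With equal numbers as a block their counts were 2525 higher and 2660 lower genes, against 2545 and 2714 without the block. For homozygous minus heterozygous the block gave 65 higher and 222 lower genes, against 91 and 331 without it. The homozygous samples that deviated together carry unequal numbers, so this block does not take up their pairing.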

Additional observations from a re-analysis of the deposited data

Results flagged for a closer look

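Single libraries stood apart from the rest of their group for 15 of the genes described, by a gap test that flags about 1 in 20 groups by chance. Over the 324 groups examined chance alone would give 16 such flags, so their total number is no more than chance gives. Genes within a library are not independent, and this total does not test whether the flags gather in 1 library. Saline 1 accounts for 7 of them and was the highest saline library for Atf4 (146, against 122 to 124 in the other saline libraries), Des (3350, against 2960 to 3000), Hspa5 (183, against 160 to 162), Itga7 (109, against 86.3 to 89.7), Krt8 (0.27, against 0.0238 to 0.0256), Lmna (81.2, against 56.8 to 59.2) and Odc1 (117, against 64.1 to 67.9). Saline 2 was low for Timp1 (0.166, against 0.584 to 0.603) and high for Tnnt2 (3.78, against 2.97 to 3.05), and saline 4 was high for Cxcl14 (48.2, against 35.5 to 37.4). Among AAV libraries, AAV 3 was high for Gclm (30.8, against 21.5 to 23.4) and low for Igf1 (22.7, against 31.9 to 36.1). The shallow AAV 2 was low for Itga6 (16.0, against 23.8 to 26.4) and Sspn (72.1, against 91.1 to 98.4) and high for Polk (9.3, against 6.28 to 6.99).

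By limma's interaction terms, the homozygous response at 7 dpi differed from the wild-type response for 2623 genes and from the heterozygous response for 422 genes. The homozygous response at 7 dpi differed from that at 3 dpi for 776 genes, and the response at 21 dpi from that at 7 dpi for 1798 genes.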

How the results depend on the processing

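The calls of homozygous AAV muscle at 7 dpi (2687 higher, 2929 lower) stayed within 1.5 times under every alternative but 1. Scaling each column to its total, chosen after seeing the data, gave 6929 and 778. Quantile normalization gave 2414 and 2996, edgeR 2743 and 2777, DESeq2 2819 and 2772, and array quality weights 3054 and 3206. Leaving out 1 library gave 2362 to 2661 and 2521 to 2874, and only the groups compared without AAV 2, also chosen after seeing the data, gave 2480 and 2502. Column-total scaling gave 4985 and 1014 in heterozygous muscle, 3854 and 385 for homozygous minus wild-type, 217 and 199 for homozygous minus heterozygous, 616 and 238 for 7 minus 3 dpi, and 1732 and 380 for 21 minus 7 dpi. Array quality weights gave 1847 higher for homozygous minus wild-type, 304 and 591 for homozygous minus heterozygous, 678 and 755 for 7 minus 3 dpi, and 1533 and 1530 for 21 minus 7 dpi. Fitting only the groups compared gave 181 higher for homozygous minus heterozygous, 255 lower for 7 minus 3 dpi, and 344 and 271 for 21 minus 7 dpi, where a mean of at least 5 CPM left 608 higher. In wild-type muscle, where limma called 0 genes (210 at an unadjusted p under 0.05), DESeq2 called 4 higher and 3 lower. Leaving out 1 library gave 59 to 94 higher and 219 to 344 lower for homozygous minus heterozygous, lowest without saline 1. For 21 minus 7 dpi it gave 590 to 1662 and 471 to 1583, lowest without the first and highest without the fourth AAV library of 21 dpi.

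Of 4358 gene values under alternatives, 4297 kept their direction and side of the threshold, 43 lost and 13 gained a call, and 5 changed sign. The changes of sign were Ttn after quantile normalization (0.21), Psme4 (0.03) and Csrp3 (0.11) after column-total scaling, and Csrp3 and Trim63 without saline 1, with ranges over left-out libraries of -0.68 to 0.26 for Csrp3 and -0.02 to 0.13 for Trim63. Their cause was not tested. With the replicate block, homozygous muscle had 2511 higher and 2756 lower genes, and no gene described changed its call or direction. That block pairs equal numbers, so AAV 5, which has no saline 5, adds nothing to its AAV effect. The homozygous samples that deviated together carry unequal numbers, so the block cannot show how their pairing bears on the calls. The 6.9 M reads of AAV 2 limit precision for genes with few reads.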
